A study of Homo sapiens with 6 samples.

Results

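The genes described here are 10 genes of autophagy, the pathway by which a cell encloses its own material in a membrane and delivers it to the lysosome. They were chosen by name, as the LC3 and GABARAP genes, 2 cargo receptors and core genes of the pathway, and all 10 were found among the 35238 gene symbols of the count table. The table holds 6 libraries of HAP1, a near-haploid line established from human leukaemia cells. The 3 wildtype libraries and the 3 DEGS1 knockout libraries all came from untreated cells, grown in medium with 5% serum and harvested 24 h after they were last passaged. DEGS1 makes ceramide from dihydroceramide, and a build-up of dihydroceramide has been linked to autophagy in other cells. The labels do not say whether the knockout was 1 clone or several, how DEGS1 was disrupted, or whether replicates were separate cultures. Wildtype and knockout libraries with the same replicate number also carry a common code in their labels, which do not say what it marks. The spread behind every p-value is that of these 6 libraries and may be technical only.

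Autophagy starts when the kinase ULK1 and a lipid kinase complex around BECN1 mark a membrane from which the autophagosome grows. Small ubiquitin-like proteins of the ATG8 family, which in human cells are the LC3s and the GABARAPs, are then attached to a lipid of that membrane. Cargo receptors such as SQSTM1 (also called p62) and NBR1 bind ubiquitin-tagged cargo with one part and ATG8 proteins with another, and are themselves degraded with the cargo. TFEB is a transcription factor that moves to the nucleus in starvation or lysosomal stress and turns on genes of lysosomes and autophagy. Lipid attachment, receptor turnover and TFEB movement are protein events, so the RNA levels below measure neither the number of autophagosomes nor their turnover.

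Library totals ran from 17322756 to 28988522 counts. DEGS1 itself stood at 95.5 to 123 CPM (edgeR's counts scaled by effective library size) in wildtype and at 6.88 to 10.4 CPM in the knockout. Of 10 blood cell markers, 3 to 5 had no count in a given library, and the 10 together reached 3.60 to 7.31 CPM. PTPRC (CD45), at 1.78 to 4.13 CPM, and CD34, at 0.669 to 2.0 CPM, made up most of that, while SPI1, CD3E and MPO had no count in any library. Wildtype replicate 2 stood apart from its group. Its chi-square per degree of freedom, where values near unity mean sampling noise alone, was 33.8 and 52.6 against the other wildtype libraries, which gave 12.6 between themselves, and 21.3 against knockout replicate 2. Knockout replicate 1 stood apart too, at 31.3 and 23.7 against the other knockout libraries, which gave 14.5 between themselves. Values from the fit without wildtype replicate 2 are given beside the results that this fit changes. Over all genes it raised the number passing the test described below, while the fit without knockout replicate 1 lowered that number.

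Of the 10 genes, 9 had enough counts to be tested. In the knockout GABARAPL1 rose, and it was the only one of the 9 to pass (edgeR's quasi-likelihood test, Benjamini-Hochberg adjusted p under 0.05 over 16954 genes). SQSTM1 was higher in every knockout library than in any wildtype library and missed the threshold narrowly. MAP1LC3B, GABARAP, GABARAPL2, NBR1, ULK1, BECN1 and TFEB did not pass. Over all genes tested 4.46% passed in either direction and 1.51% passed as higher, and 1 of 9 genes is too few to set against those shares. The 9 log2 fold changes, given throughout as knockout over wildtype, had a median of 0.12 against -0.02 over all tested genes, with 5 positive and 4 negative. The count moved with single libraries. Without knockout replicate 3 none of the 9 passed in edgeR's test (2 had an unadjusted p under 0.05), and without wildtype replicate 2 there were 5, of which 4 were higher and 1 lower, while 22.1% of all genes passed in that fit.

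**Figure D1:**
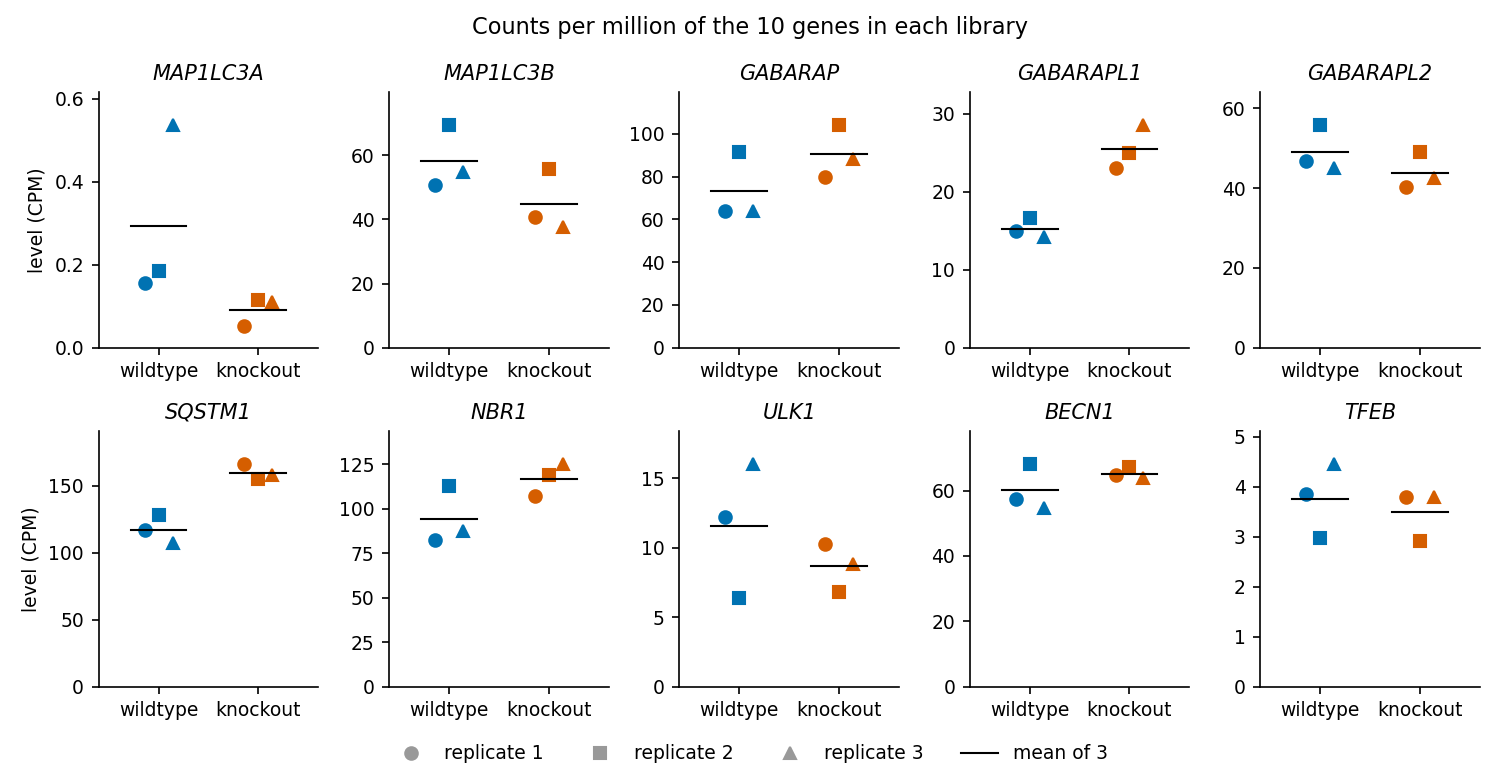
Level of each of the 10 genes in CPM (vertical axes, linear and starting at 0) in the 3 wildtype libraries (blue) and the 3 DEGS1 knockout libraries (orange), with the replicate number as the symbol and the group mean as a line. GABARAPL1 and SQSTM1 have no overlap between the groups among the 9 tested genes, and wildtype replicate 2 (square) is the highest or lowest wildtype library in each of those 9 panels.

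GABARAPL1, a GABARAP-type member of the ATG8 family, was counted 380, 448 and 265 times in wildtype replicates 1, 2 and 3, and 448, 652 and 783 times in the corresponding knockout libraries. On the CPM scale these were 14.9, 16.6 and 14.2 in wildtype and 23.0, 24.9 and 28.5 in the knockout. Every knockout library thus lay above every wildtype library, with a gap between the groups wider than the range within wildtype. The mean went from 15.3 ± 1.25 to 25.5 ± 2.82 CPM (SD, n = 3 each), a 1.67-fold increase with a 95% interval of 1.36 to 2.04 (0.74 on the log2 scale, SE 0.13, edgeR adjusted p = 0.00749). Its spread between replicates was 8.21% of the mean in wildtype and 11.1% in the knockout, where counting error alone gives 5.33% and 4.07%. The gene passed in 16 of 17 other settings, and the exception was the fit without knockout replicate 3, its highest library, where the log2 fold change was 0.65 (edgeR adjusted p = 0.0634). GABARAPL3, a near-identical copy that could draw reads from GABARAPL1, had 0 counts in all 6 libraries. The setting that adds this copy, counted among the 17, therefore repeats the reported fit.

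The start region of GABARAPL1 is shown because it is the gene that rose, beside that of GABARAPL2, a relative in the same family that did not. The stretches are the 250 bases before the first base of the gene, from RefSeq on GRCh38.p14, at chr12:10212627-10212876 for GABARAPL1 and chr16:75566129-75566378 for GABARAPL2, both on the plus strand, and the capitals mark a match to TGACGTCA, the cAMP response element that CREB and ATF factors bind.
GABARAPL1: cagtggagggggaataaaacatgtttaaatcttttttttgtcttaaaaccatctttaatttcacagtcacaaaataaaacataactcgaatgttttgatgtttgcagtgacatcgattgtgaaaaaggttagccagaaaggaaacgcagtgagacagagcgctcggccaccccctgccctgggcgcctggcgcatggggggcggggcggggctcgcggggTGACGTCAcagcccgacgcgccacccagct
GABARAPL2: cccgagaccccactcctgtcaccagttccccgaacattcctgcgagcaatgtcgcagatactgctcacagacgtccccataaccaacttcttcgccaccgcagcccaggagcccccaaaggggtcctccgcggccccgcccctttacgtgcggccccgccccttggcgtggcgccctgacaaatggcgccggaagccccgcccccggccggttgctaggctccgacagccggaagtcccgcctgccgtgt
The match begins 30 bases before the start of GABARAPL1. This motif was added after the sequence had been read. Such a match was present before the start of 2.03% of the 27305 genes in the RefSeq table, on either strand, and of these 9 genes only before GABARAPL1. Of the motifs searched from the outset, none of the 9 genes in that table had CACGTG, the core of the element that TFEB binds (7.73% of all genes), its longer form TCACGTGA (1.04%), GTAAACA for FOXO factors (3.66%) or TTGCATCA for ATF4 with a C/EBP partner (0.967%). TGACNNNGC, the element of NRF2, was found before MAP1LC3B and in 13.2% of all genes. These are letter matches in a short window and say nothing about binding in these cells.

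The 5 tested genes whose 6 values lay nearest to those of GABARAPL1, each gene set against its own wildtype mean on the log2 scale, were TMSB4X, RASSF2, MPDZ, PNMA2 and MAGED1. Their root mean square distances from GABARAPL1 were 0.071 to 0.104 log2 units, among 10013 genes with a mean of at least 10 CPM. TMSB4X, an actin-binding peptide, went from 345 ± 44.1 to 608 ± 73.0 CPM (SD, n = 3 each), and MPDZ, a scaffold with many PDZ domains, from 88.3 ± 7.14 to 147 ± 1.96 CPM. All 5 were picked for this likeness, so their own fold changes are a description.

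GABARAP, the founding gene of its branch of the family, had wildtype levels of 64.1, 91.4 and 63.7 CPM and knockout levels of 80.0, 104 and 88.2 CPM. The groups overlapped through wildtype replicate 2, and the other wildtype libraries lay below all 3 knockout libraries. The log2 fold change came to 0.31, with an SE of 0.16 (edgeR adjusted p = 0.348) and a 95% interval of -0.03 to 0.65. Without wildtype replicate 2 the value was 0.51 (edgeR adjusted p = 0.00713), and that fit was the 1 of 16 other settings in which GABARAP passed. The 50 nearest tested genes on its chromosome, 17, had a median log2 fold change of 0.19. With the neighbourhood median removed GABARAP stood at 0.11 (edgeR adjusted p = 0.813).

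GABARAPL2, also known as GATE-16, had 46.7, 55.7 and 45.0 CPM in wildtype against 40.2, 49.0 and 42.4 CPM in the knockout. MAP1LC3B, the LC3 gene whose protein is the usual marker of autophagosomes, had 50.6, 69.3 and 54.8 CPM in wildtype against 40.7, 55.7 and 37.7 CPM in the knockout. In both genes the mean was lower in the knockout and the groups overlapped, and in both the second replicate was the highest of its genotype. Neither passed, and MAP1LC3B passed in 1 of 17 other settings (adjusted p = 0.0387 to 0.794 over the edgeR, DESeq2 and limma fits). The log2 fold change of GABARAPL2 was -0.16 (SE 0.12, edgeR adjusted p = 0.541) and that of MAP1LC3B -0.38 (SE 0.16, edgeR adjusted p = 0.261), with 95% intervals of -0.43 to 0.10 and -0.74 to -0.03.

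Both of these genes lie on chromosome 16, in stretches whose genes were lower in the knockout as a whole. The median log2 fold change of the 50 nearest tested genes was -0.27 around GABARAPL2 and -0.25 around MAP1LC3B. With the neighbourhood median taken out, GABARAPL2 changed sign to 0.10 (edgeR adjusted p = 0.727) and MAP1LC3B went to -0.14 (edgeR adjusted p = 0.794). GABARAPL1, on chromosome 12, had neighbours with a median of -0.07, and with that removed it had a change of 0.78 (edgeR adjusted p = 0.0451). MAP1LC3B has a near-identical copy, MAP1LC3B2, whose summed counts were 82 in wildtype and 68 in the knockout against 4179 and 3286 for MAP1LC3B, and adding the copy left the log2 fold change at -0.38. In the GENCODE annotation MAP1LC3B also overlaps FBXO31 on the other strand, and the strand setting of the counting is not given, so reads of the overlap cannot be told apart.

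**Figure D2:**
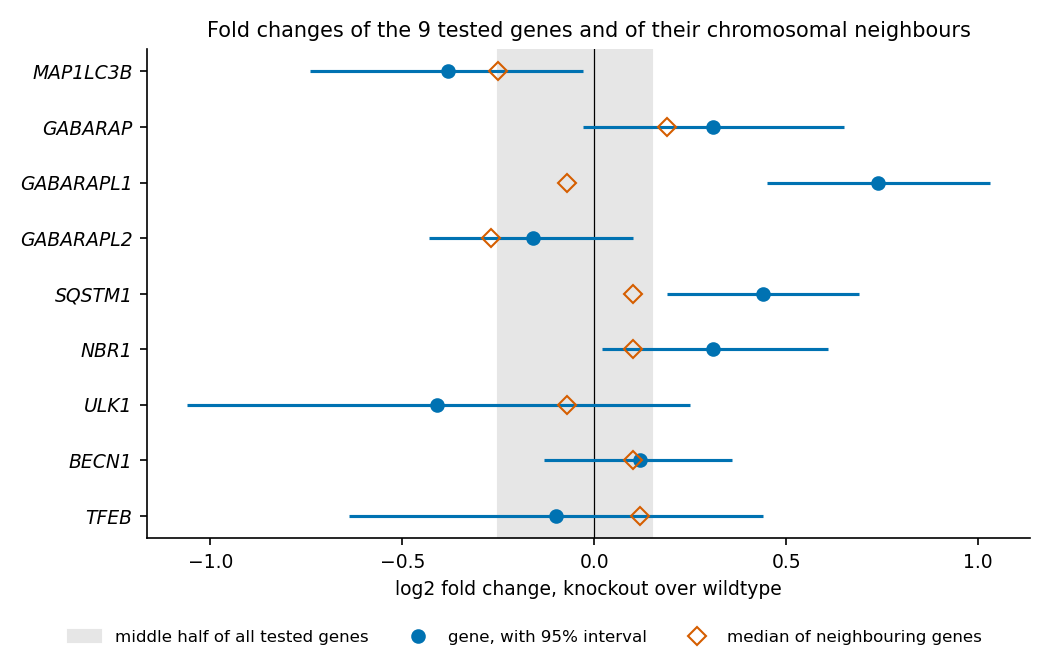
Log2 fold change, knockout over wildtype (horizontal axis), of the 9 tested genes with its 95% interval (blue) and the median log2 fold change of the nearest tested genes on the same chromosome, up to 25 on either side (orange diamonds); the grey band spans the lower to the upper quartile of all tested genes, -0.25 to 0.15. GABARAPL1 lies at 0.74 with neighbours at -0.07, while GABARAPL2 and MAP1LC3B, at -0.16 and -0.38, have neighbours at -0.27 and -0.25.

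MAP1LC3A, the other LC3 gene of the set, was barely detected. Its counts were 4, 5 and 10 in wildtype against 1, 3 and 3 in the knockout, or 0.157 to 0.536 CPM and 0.0513 to 0.115 CPM, where 3 counts correspond to 0.109 to 0.161 CPM. The knockout libraries were all at or below that floor, and the gene did not reach the expression filter. The summed counts, 19 against 7, gave a scaled knockout to wildtype ratio of 0.358, for which counting error alone sets an exact 95% interval of 0.127 to 0.890. Without the filter the fit gave a log2 change of -1.5 (SE 0.76, edgeR adjusted p = 0.402).

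The summed level of the 5 ATG8 genes was 177, 233 and 178 CPM in wildtype and 184, 234 and 197 CPM in the knockout. These ranges overlapped almost entirely (means 196 ± 32.2 and 205 ± 25.9 CPM, SD, n = 3 each, two-sided exact permutation p = 0.5). The share that each gene held of the family separated the groups. On the scale of CPM per kilobase of the longest coding transcript, GABARAPL1 held 5.85%, 5.01% and 5.58% of the family level in wildtype and 8.77%, 7.53% and 10.1% in the knockout. GABARAP went from a mean share of 36.4% ± 1.99 to 43.6% ± 0.700, and GABARAPL2 from 40.3% ± 1.74 to 34.5% ± 0.603 (SD, n = 3 each). MAP1LC3B held 16.9%, 17.8% and 18.4% in wildtype and 13.3%, 14.4% and 11.4% in the knockout. In each of these 4 genes the shares of the groups did not overlap, at a two-sided exact permutation p of 0.1, the smallest that 3 libraries against 3 can give. The shares sum to a whole, so they are not independent of each other. Their size depends on the transcript length assumed. With the median length of the coding transcripts, wildtype means were 95.9 for GABARAP and 68.4 for GABARAPL2. MAP1LC3B then stood at 35.2 and GABARAPL1 at 24.7 CPM per kilobase. Shares with that length were not computed. GABARAPL2 and MAP1LC3B lie in stretches of chromosome 16 that were lower in the knockout (neighbour medians -0.27 and -0.25). Part of the change in every share cannot be told apart from that.

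Ratios within a library do not depend on how libraries are scaled. GABARAPL1 stood to GABARAPL2 at 0.320, 0.299 and 0.315 in the wildtype libraries and at 0.572, 0.509 and 0.673 in the knockout libraries. The 3 wildtype ratios lay within a narrow range, wildtype replicate 2 included, and each knockout ratio was well above it. GABARAPL1 to MAP1LC3B gave 0.295, 0.240 and 0.259 against 0.564, 0.447 and 0.757. GABARAPL1 to GABARAP, the ratio with no partner on chromosome 16, separated the groups by less, with 0.233, 0.182 and 0.223 against 0.287, 0.240 and 0.324. All 3 ratios had a two-sided exact permutation p of 0.1, and since GABARAPL2 and MAP1LC3B lie in lowered stretches of chromosome 16, part of the ratios to them cannot be told apart from that.

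**Figure D3:**
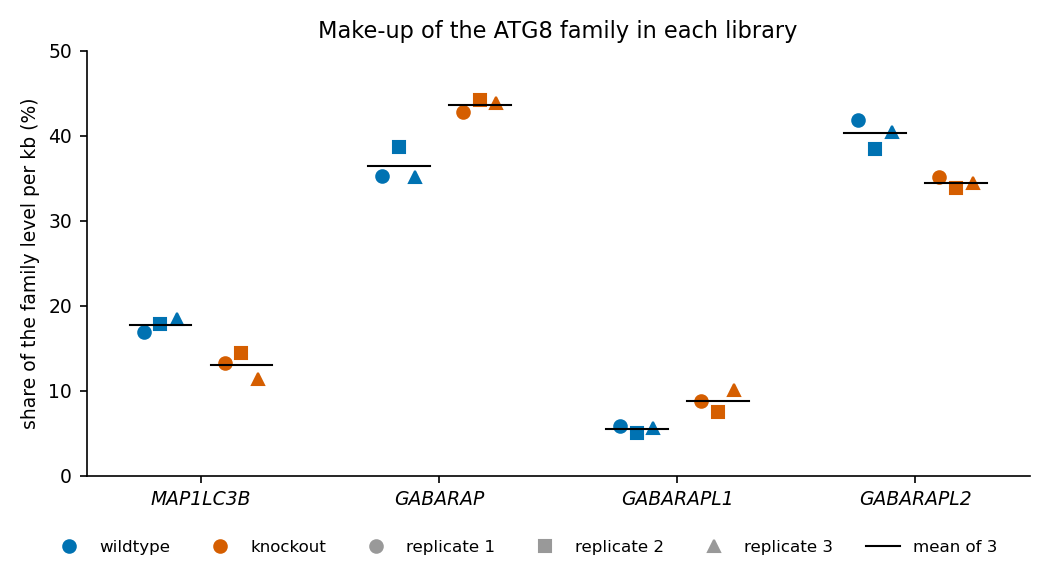
Share of the summed level per kilobase of the ATG8 family (vertical axis, percent, from 0) held by MAP1LC3B, GABARAP, GABARAPL1 and GABARAPL2 in each wildtype (blue) and knockout (orange) library, with group means as lines; MAP1LC3A, below 1% in every library, is left out. The knockout shares of GABARAP and GABARAPL1 lie above the wildtype ones and those of MAP1LC3B and GABARAPL2 below. Lengths are those of the longest coding transcript, and the size of a share depends on that choice.

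SQSTM1, the best known cargo receptor and also a signalling hub that binds the NRF2 inhibitor KEAP1, had wildtype levels of 117, 128 and 107 CPM and knockout levels of 166, 155 and 158 CPM. The groups did not overlap and the knockout libraries were close together. The mean went from 117 ± 10.8 to 160 ± 5.59 CPM (SD, n = 3 each), 1.36-fold with a 95% interval of 1.14 to 1.62, and the gene missed the threshold (0.44 on the log2 scale, SE 0.11, edgeR adjusted p = 0.0536). Of 16 other settings it passed in 6, including the DESeq2 Wald test (adjusted p = 0.00855), upper-quartile scaling (edgeR adjusted p = 0.0243) and the fit without wildtype replicate 2 (edgeR adjusted p = 0.00211), and its log2 fold change ranged from 0.34 to 0.52 over the 16. With a single library left out SQSTM1 passed only when that was wildtype replicate 2 (edgeR adjusted p = 0.00211 to 0.242 over the 6 fits). With the neighbourhood median removed its log2 fold change was 0.34 and it did not pass (edgeR adjusted p = 0.164). SQSTM1 overlaps MGAT4B on the other strand in the annotation. MGAT4B summed to 4944 counts in wildtype and 4994 in the knockout.

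NBR1, the second receptor, which acts with SQSTM1 in gathering ubiquitinated cargo, had 82.7, 113 and 87.4 CPM in wildtype and 107, 119 and 125 CPM in the knockout. Wildtype replicate 2 fell within the knockout range and the other wildtype libraries lay below it. The log2 fold change came to 0.31, with an SE of 0.13 (edgeR adjusted p = 0.268), and without wildtype replicate 2 it was 0.47 (edgeR adjusted p = 0.00483). The ratio of SQSTM1 to NBR1 within a library was 1.41, 1.14 and 1.22 in wildtype and 1.54, 1.30 and 1.26 in the knockout, with overlapping groups (two-sided exact permutation p = 0.4). Of the 9 tested genes 2, GABARAPL1 and SQSTM1, had groups that did not overlap, both higher in the knockout. Over all tested genes 20.8% had groups that did not overlap and 9.24% had the knockout libraries above. An unadjusted p under 0.05 was reached by 4 of the 9, GABARAPL1, SQSTM1, MAP1LC3B and NBR1, and by 16.5% of all tested genes.

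ULK1, the kinase that starts autophagosome formation, varied most within wildtype among the tested genes. It had 12.2, 6.39 and 16.0 CPM in wildtype and 10.3, 6.84 and 8.86 CPM in the knockout. Replicate 2 was the lowest of its genotype in both groups, and the groups overlapped. The replicate spread was 41.9% of the mean in wildtype against a counting error of 6.36%. The log2 fold change came to -0.41, with an SE of 0.30 (edgeR adjusted p = 0.537) and a 95% interval of -1.06 to 0.25 that allows anything from a 2.09-fold decrease to a 1.19-fold increase. Without wildtype replicate 2 the log2 fold change was -0.70 (edgeR adjusted p = 0.021).

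BECN1, a scaffold subunit of the lipid kinase complex, varied least of the tested genes between knockout libraries. It had 57.5, 68.0 and 54.8 CPM in wildtype and 64.6, 67.1 and 63.9 CPM in the knockout. The knockout libraries lay within the wildtype range. The log2 fold change came to 0.12, with an SE of 0.11 (edgeR adjusted p = 0.644), and its 95% interval of -0.13 to 0.36 leaves room for no more than a 1.28-fold increase or a 1.09-fold decrease. The gene passed in none of 16 other settings, where edgeR, DESeq2 and limma gave adjusted p-values of 0.0842 to 0.967.

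TFEB was expressed at a low level, at wildtype counts of 98, 80 and 83 and knockout counts of 74, 76 and 104. These gave 3.85, 2.97 and 4.45 CPM against 3.8, 2.91 and 3.79 CPM. The groups overlapped, with replicate 2 the lowest of each genotype. The log2 fold change came to -0.10, with an SE of 0.25 (edgeR adjusted p = 0.874) and an interval from -0.64 to 0.44, so the data allow a change of up to 1.56-fold down or 1.36-fold up.

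**Figure D4:**
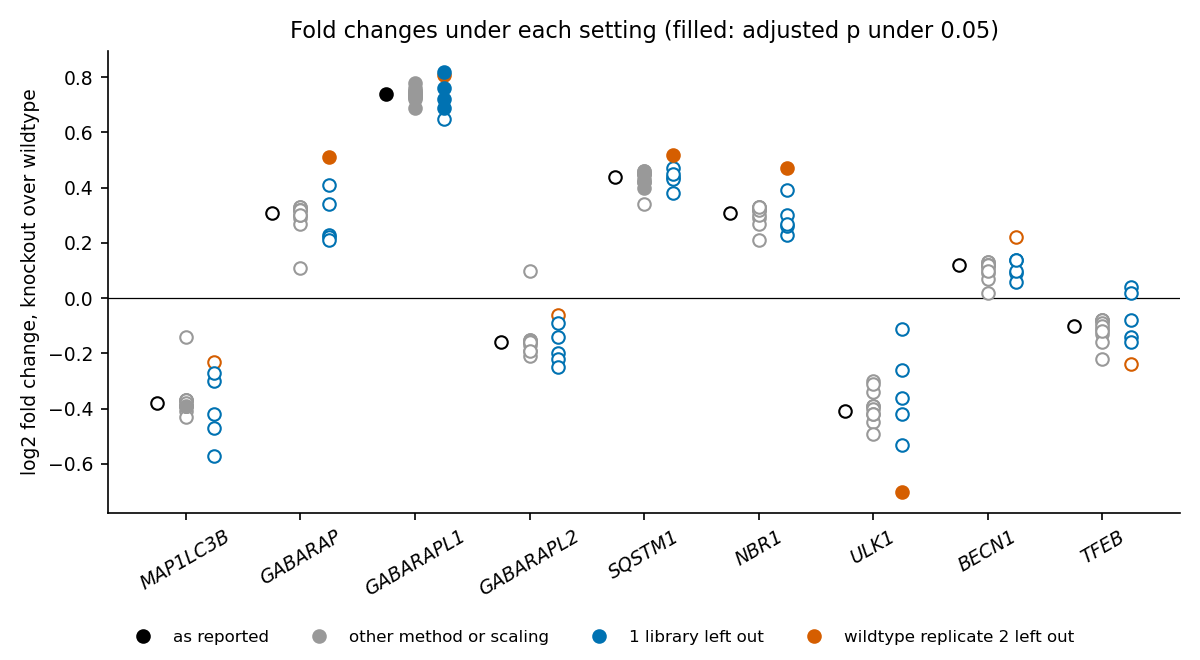
Log2 fold change, knockout over wildtype (vertical axis), of the 9 tested genes as reported (black), under other scalings, filters, tests and corrections (grey), and with 1 library left out (blue; orange where it was wildtype replicate 2), filled where the adjusted p is under 0.05. GABARAPL1 is filled in 16 of 17 other settings, of which the sum with its uncounted copy GABARAPL3 repeats the reported fit. GABARAP, NBR1 and ULK1 are filled only where wildtype replicate 2 was left out, and MAP1LC3B at 1 other setting.

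Wildtype replicate 2 was the highest of the 3 wildtype libraries in 7 of the 9 tested genes and the lowest in the other 2, ULK1 and TFEB. Leaving it out moved MAP1LC3B (to -0.23) and GABARAPL2 (to -0.06) towards 0 and the other 7 away from it. Why this library differs was not tested.

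Levels were compared between the 10 genes only per kilobase. On that scale, with the longest coding transcript of each gene as its length, GABARAPL2 (49.1 ± 5.73), GABARAP (44.7 ± 9.71) and SQSTM1 (39.3 ± 3.60 CPM per kilobase, SD, n = 3 each) were highest in wildtype. GABARAP overlapped both of the others, while every wildtype library had GABARAPL2 above the highest level of SQSTM1 (45.0 to 55.6 against 35.8 to 43.0). BECN1 followed with 28.5 ± 3.31, then MAP1LC3B with 21.7 ± 3.65 and NBR1 with 20.3 ± 3.49, which overlapped each other. GABARAPL1 came next at 6.65 ± 0.546 in wildtype and 11.1 ± 1.23 in the knockout, where NBR1 stood at 25.2 ± 1.92 and MAP1LC3B at 16.6 ± 3.60. ULK1 at 2.17 ± 0.909 and TFEB at 1.45 ± 0.286 overlapped, and MAP1LC3A was last at 0.186 ± 0.134. With the median length of each gene's coding transcripts in place of the longest, SQSTM1 came first and GABARAPL2 after GABARAP and BECN1, and in wildtype the last 4 were the same genes as before, with TFEB above ULK1. With that length the knockout level of GABARAPL1 (41.3) was above those of NBR1 (37.8) and MAP1LC3B (27.0), so their order in the knockout depends on the transcript assumed.

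The other genes of the pathway were read from 11 lists with 109 genes, of which 106 were tested. Of these 106, 1 gene passed, VPS39, a subunit of the HOPS complex that tethers autophagosomes to lysosomes. It had 46.0, 43.3 and 42.0 CPM in wildtype and 58.1, 55.5 and 60.6 CPM in the knockout, and its groups did not overlap (0.41 on the log2 scale, SE 0.10, edgeR adjusted p = 0.0405). Its neighbours on chromosome 15 had a median log2 fold change of 0.19, and with that removed it did not pass (0.21, edgeR adjusted p = 0.302). It passed in 7 of 16 other settings and with a single library left out it passed only when that was wildtype replicate 2 (edgeR adjusted p = 0.0101 to 0.219 over the 6 fits). Of the 106 genes, 81 (76.4%, against 47.3% of all tested genes) had a positive and 25 a negative log2 fold change, with a median of 0.13. Groups that did not overlap were found in 30 (28.3%, against 20.8% of all tested genes), of which 25 were higher in the knockout (23.6%, against 9.24%) and 5, ATG7, FOXO1, FOXO3, LAMP1 and ATP6V0D1, were lower. FOXO1, LAMP1 and ATP6V0D1 had log2 fold changes of -0.31, -0.19 and -0.29, and their neighbours had medians of -0.28, -0.33 and -0.30. The neighbours of ATG7 and FOXO3 had medians of 0.06 and 0.05. Without wildtype replicate 2, 35 of the 106 passed (33.0%, against 22.1% of all genes in that fit), 28 higher and 7 lower.

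**Figure D5:**
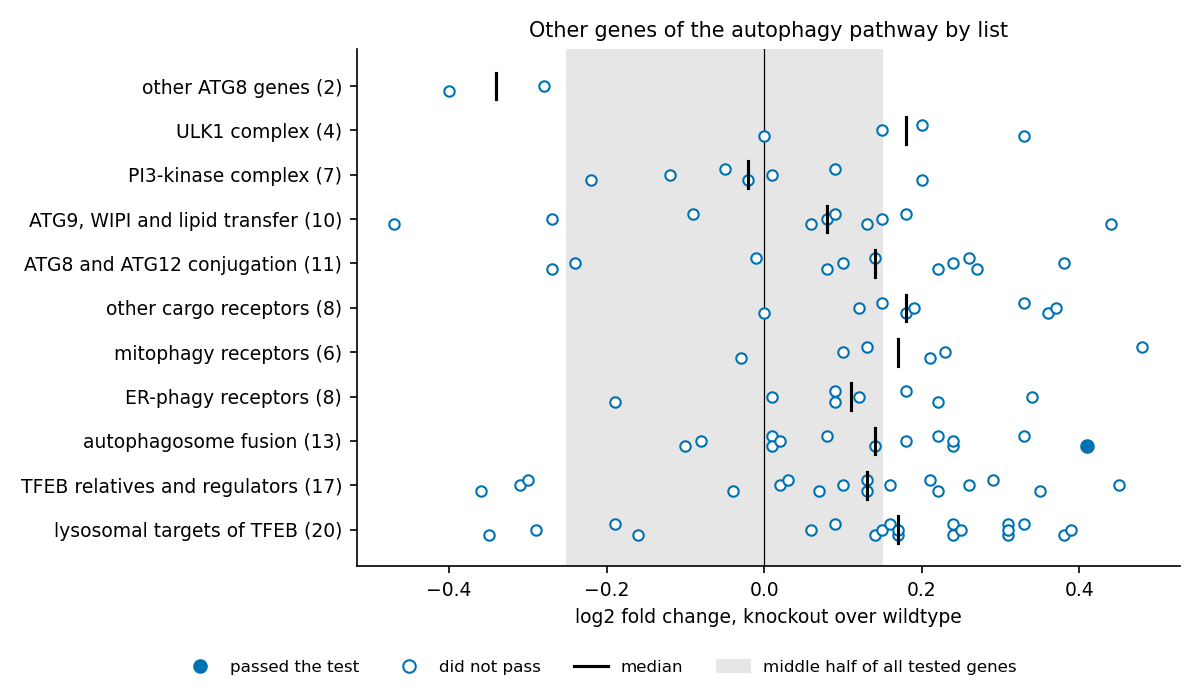
Log2 fold change, knockout over wildtype (horizontal axis), of the 106 other autophagy genes tested, in 11 lists with the number tested in brackets; filled points passed edgeR's test, black lines are list medians and the grey band spans the quartiles of all tested genes, -0.25 to 0.15. VPS39 is the filled point at 0.41, and medians run from -0.34 for the other ATG8 genes to 0.18 for the ULK1 complex and the other cargo receptors.

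Among the partners of ULK1 and BECN1 none passed in edgeR's test or in DESeq2. An unadjusted p under 0.05 was reached by 16.5% of all tested genes and by 1 of these 11. That gene was RB1CC1 (FIP200), the large scaffold of the ULK1 complex, with 163 ± 20.1 CPM in wildtype and 205 ± 12.1 CPM in the knockout (SD, n = 3 each, log2 fold change 0.33, edgeR adjusted p = 0.205). RUBCN (Rubicon), an inhibitor of the lipid kinase complex, had the smallest p of that complex with a log2 fold change of -0.22 (edgeR adjusted p = 0.408). With wildtype replicate 2 left out, 3 of the 11 passed, RB1CC1 (0.44, edgeR adjusted p = 0.00583) and RUBCN (-0.32, edgeR adjusted p = 0.0488) among them. In that fit 22.1% of all genes passed. Of 10 genes of membrane supply and lipid transfer none passed in edgeR's test, and WDR45B, a WIPI protein, was nearest at 0.44 (SE 0.13, edgeR adjusted p = 0.0852, and adjusted p = 0.0367 in DESeq2). WDR45B was among the 3 of 10 genes that passed without wildtype replicate 2 (0.57, edgeR adjusted p = 0.00162).

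The enzymes that attach and release ATG8 proteins gave 11 tested genes and no call in edgeR or DESeq2. An unadjusted p under 0.05 was reached by 2 (18.2%, against 16.5% of all tested genes). ATG4C, a protease that trims ATG8 proteins, stood at 20.8 ± 1.98 CPM in wildtype and 27.1 ± 2.66 CPM in the knockout (log2 fold change 0.38, edgeR adjusted p = 0.144), and ATG7, the activating enzyme, was the 1 gene of this list with all knockout libraries lower (-0.27, edgeR adjusted p = 0.256). In this list 4 of the 11 passed without wildtype replicate 2 (36.4%, against 22.1% of all genes in that fit), ATG4C among them (0.46, edgeR adjusted p = 0.0221). The 2 remaining ATG8 genes that could be tested, MAP1LC3C and MAP1LC3B2, were near 1 CPM. Their log2 fold changes were -0.40 for MAP1LC3C (SE 0.50) and -0.28 for MAP1LC3B2 (SE 0.39), at edgeR adjusted p-values of 0.730 and 0.768.

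Of the 8 other cargo receptors tested, 7 had a positive log2 fold change, against 47.3% of all tested genes. An unadjusted p under 0.05 was reached by 2 of the 8 and by 16.5% of all tested genes. None of the 8 passed in edgeR or DESeq2. CALCOCO2 (NDP52), a receptor for bacteria and damaged mitochondria, had 47.0, 57.6 and 46.3 CPM in wildtype and 64.5, 62.1 and 67.9 CPM in the knockout (0.37 on the log2 scale, SE 0.11, edgeR adjusted p = 0.113). OPTN, a receptor of the same kind chosen here after its value was seen, had a log2 fold change of 0.33 (edgeR adjusted p = 0.193). Of the 8 receptors 2 passed without wildtype replicate 2, CALCOCO2 among them (0.48, edgeR adjusted p = 0.00302), where 22.1% of all genes passed. Of 6 mitophagy receptors BNIP3L (NIX) was nearest to the threshold at 0.48 (SE 0.15, edgeR adjusted p = 0.103), and of 8 receptors of ER-phagy, the autophagy of the endoplasmic reticulum, it was RETREG2, listed under its older symbol FAM134A, at 0.34 (edgeR adjusted p = 0.217). In these lists 1 gene each had an unadjusted p under 0.05 (16.7% and 12.5%, against 16.5% of all tested genes). None passed in edgeR as fitted here or in DESeq2. BNIP3L passed in 4 of 16 other settings. Without wildtype replicate 2, 2 mitophagy receptors passed (33.3%), BNIP3L among them (0.66, edgeR adjusted p = 0.00106), and 3 ER-phagy receptors (37.5%), FAM134A among them (0.49, edgeR adjusted p = 0.00908). In that fit 22.1% of all genes passed.

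The relatives and regulators of TFEB gave 17 tested genes with no call in edgeR or DESeq2 and 6 at an unadjusted p under 0.05 (35.3%, against 16.5% of all tested genes), 4 higher and 2 lower. FOXO3, a transcription factor that also drives autophagy genes, stood at 78.2, 66.7 and 82.1 CPM in wildtype and at 55.8, 62.6 and 58.0 CPM in the knockout, with no overlap (-0.36 on the log2 scale, SE 0.11, edgeR adjusted p = 0.107). Of the 17 genes 4 passed without wildtype replicate 2 (23.5%, near the 22.1% of all genes in that fit), FOXO3 among them (-0.44, edgeR adjusted p = 0.00492). Of 20 lysosomal genes known as TFEB targets none passed in edgeR or DESeq2, and 16 were positive (80.0%, against 47.3% of all tested genes). An unadjusted p under 0.05 was reached by 9 (45.0%, against 16.5%), of which 8 were higher. NEU1, the lysosomal sialidase, had the smallest p, with 57.7 ± 3.11 CPM in wildtype and 75.7 ± 10.2 CPM in the knockout (SD, n = 3 each, log2 fold change 0.39, SE 0.12, edgeR adjusted p = 0.101). Without wildtype replicate 2, 10 of the 20 passed, NEU1 among them (0.42, edgeR adjusted p = 0.0224), where 22.1% of all genes passed.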

How the data were processed

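The raw counts per gene that the authors deposited for the 6 libraries were used. Per the labels' protocols, libraries were made with a strand-specific kit from 1 ug of total RNA and read as single ends of 75 nt. Per the submitters' processing notes, bcl2fastq 2.20 and genome build hg19 were used. For the aligner, the counter, their annotation and the strand setting, nothing is given in the sources used here.

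Counts were fitted with edgeR 4.0.16 in R 4.3.3: scaling by trimmed mean of M values, edgeR's expression filter, a robust quasi-likelihood F test on genotype over the whole table, and Benjamini-Hochberg adjustment. Standard errors were derived from F as |log2 fold change| / √F. The biological coefficient of variation was 16.4%. Differences of single values were tested by exact permutation of the libraries. On simulated counts with the same means, 31.3% of 67 genes changed 1.5-fold, 79.1% of 67 changed 2-fold and 98.5% of 66 changed 4-fold were recovered. False calls numbered 9 among 16702 genes. The simulated counts were drawn independently for each gene, with no library set apart as wildtype replicate 2 was. These rates may therefore differ in the real libraries.

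The genes, the lists and the alternatives were chosen with earlier results of these data known. Named were all 10 genes, the called genes of each list or the one with the smallest p, the 5 nearest patterns, and near-identical copies. All 129 genes of the lists were matched, 3 through an older symbol. Neighbours, up to 25 tested genes on either side, come from the order of genes in RefSeq on GRCh38.p14, which placed 77.5% of symbols, and lengths from GENCODE release 29. That build differs from the authors', so only the RefSeq start regions carry coordinates. Alternatives were DESeq2 1.42.0 size factors and Wald test, upper-quartile scaling, library size only, limma 3.58.1 voom, no filter, at least 1 CPM in 3 libraries, a replicate block, the neighbourhood median removed, the length and GC trend removed, each library left out, near-identical copies summed, and a threshold of 0.01.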

Additional observations from a re-analysis of the deposited data

How the results depend on the processing

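Of the 9 tested genes 1 passed as reported. The number was 2 with the DESeq2 Wald test, with scaling by upper quartile or by library size only, and with the filter of 1 CPM in 3 libraries, where SQSTM1 was added, and 0 to 5 with 1 library left out. With the replicate block it was 3, with MAP1LC3B (edgeR adjusted p = 0.0387) and SQSTM1 (0.0277) beside GABARAPL1. Same-numbered libraries share a number and a code of unstated meaning, and were not taken as pairs: their deviations correlated at 0.257, 0.408 and -0.23 over 10461 genes, and wildtype replicate 3 correlated best with knockout replicate 1. Of the other pathway genes 1 passed as reported, 2 in the DESeq2 Wald test and with no filter, 3 with the length and GC trend removed, 5 with the replicate block and 0 to 35 with 1 library left out. The count was 0 in limma voom (24 at an unadjusted p under 0.05), with the neighbourhood median removed (22) and at a threshold of 0.01 (25). Over all genes the count of 756, of which 33.9% were higher, became 375 at the threshold of 0.01 and 380 to 3825 with 1 library left out, the last without wildtype replicate 2 and 48.0% higher. Without knockout replicate 1 the count over all genes was 424, with 1 of the 9 genes and 0 of the other pathway genes passing. SQSTM1 (edgeR adjusted p = 0.205) and NBR1 (edgeR adjusted p = 0.345) did not pass in that fit. Signs changed for GABARAPL2 with the neighbourhood median removed (0.10), for TFEB with 1 library left out (-0.24 to 0.04) and for MAP1LC3C likewise (-0.82 to 0.21), none of which passed in edgeR in any of these fits. In 298 of 341 values of 20 genes neither direction nor call changed. Of these 20 only GABARAPL1 and VPS39 passed as reported, so for the others an unchanged call means that they still did not pass. The 341 values include the threshold of 0.01, which reuses the reported fit. There no direction could change, and a gene that had not passed could not pass. Adding the uncounted copy GABARAPL3 to GABARAPL1 also repeats the reported fit. No scaling moved the median of all genes by more than 0.1 log2 units, library size only giving -0.073. Depth limited MAP1LC3A, below the filter, and TFEB, at 74 to 104 counts per library.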

Other observations

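CACGTG, the core of the element that TFEB binds, was found within 250 bases before the start of 19 of the 84 other pathway genes in the RefSeq table (22.6%), against 7.73% of all genes there, and TCACGTGA before 9 (10.7%, against 1.04%). None of the 9 genes of the set in that table had either. The 84 genes come from lists that include lysosomal genes known as TFEB targets, so their share depends on how they were chosen. The share of all genes includes genes that were not tested here. The 19 pathway genes with CACGTG had a median log2 fold change of 0.10 in the knockout and the 63 tested ones without it one of 0.12. Over the tested genes found in that table, 1237 with it and 10112 without, the medians were both 0.00. These are descriptions, and no relation to expression was tested.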
